A study of Homo sapiens with 15 samples.

Results

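The 4 tropomyosin genes TPM1, TPM2, TPM3 and TPM4 and the LIM domain gene LIMA1 were followed after 6 h of treatment with inhibitors or a degrader of the histone acetyltransferases CBP and p300, in MM.1S, an established line of human myeloma cells. They are 5 of the 47459 genes with values. TPM1 (ENSG00000140416) and LIMA1 (ENSG00000050405) were selected on their rise with treatment against DMSO, so their levels against DMSO are a description without a test; TPM2 (ENSG00000198467), TPM3 (ENSG00000143549) and TPM4 (ENSG00000167460) were taken in by family name. The groups were dCBP-1, a degrader that joins a bromodomain ligand to a cereblon ligand; A-485 together with GNE-781 (called the combination); GNE-781 alone, a bromodomain inhibitor; A-485 alone, an inhibitor of the acetyltransferase site; and the vehicle DMSO. Each compound was given at 100 nM for 6 h, the 2 compounds of the combination at that dose each, and each group had 3 libraries of 3′ ends of messenger RNA, so a gene's count does not grow with its length. The labels do not say that the 3 libraries came from separate cultures, and p-values measure the spread between these libraries only.

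Tropomyosins are coiled-coil dimers that lie end to end along the groove of the actin filament. Which tropomyosin covers a filament decides how myosin, cofilin and other proteins reach it, and non-muscle cells make several forms from each gene by alternative promoters and splicing. LIMA1, also called EPLIN, binds and bundles actin filaments, slows their disassembly and holds back branching by the Arp2/3 complex. The deposited values give 1 row per gene, so the forms made from each gene could not be told apart.

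The libraries held 13103114 to 18291529 reads each. The other 13 libraries differed from DMSO replicates 1 and 2. Mitochondrial genes took 23.07% and 19.73% of their reads, against 14.34% to 16.96% in the other 13, and at equal depth 16274 and 17376 genes had a read in them, against 18735 to 20547. Differences of the members and of the named list genes from DMSO are therefore given with and without them. All 8 plasma cell markers passed the filter on low values, and their summed normalized read count ran from 24222 to 26041 in the dCBP-1 libraries and from 61155 to 65168 in the DMSO libraries. Among markers of other cells, the summed counts over the 15 libraries reached at most 34.4 for 6 fibroblast genes, 17.8 for 5 muscle genes, with DES and ACTC1 at 0, 25.3 for 4 T cell genes, with CD3D at 0, 18.2 for 4 B cell genes, 17.5 for 4 myeloid genes, with CSF1R and FCGR3A at 0, and 6.33 for the endothelial genes. The 4 epithelial genes summed to 21.8 to 30.8 in dCBP-1 libraries and to at most 5.77 in DMSO libraries, and the 3 erythroid genes to 26.7 to 37.9 in dCBP-1 libraries and to 75.9 to 147 in DMSO libraries; their part in the results was not tested. In bulk RNA, fewer cells of a kind and less RNA per cell cannot be told apart.

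Upstream sequences of 3 start sites are shown because TPM1 and LIMA1 were higher in every treated group while TPM4 was lower with dCBP-1. They are the 250 bases before the start in RefSeq on GRCh38.p14 (the counts used hg19), on the gene's strand, 5′ to 3′. They are TPM1 at chr15:63048239-63048488 (plus strand), LIMA1 at chr12:50283521-50283770 (minus strand) and the upstream one of 3 TPM4 starts at chr19:16067288-16067537 (plus strand). Capitals mark matches of the CArG box, bound by serum response factor, in TPM4 and of the EGR1 motif in LIMA1.
TPM1: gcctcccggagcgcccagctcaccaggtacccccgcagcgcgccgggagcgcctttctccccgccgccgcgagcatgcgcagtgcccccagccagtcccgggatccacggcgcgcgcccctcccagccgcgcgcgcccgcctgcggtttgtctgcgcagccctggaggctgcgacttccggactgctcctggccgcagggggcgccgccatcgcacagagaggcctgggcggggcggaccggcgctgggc
LIMA1: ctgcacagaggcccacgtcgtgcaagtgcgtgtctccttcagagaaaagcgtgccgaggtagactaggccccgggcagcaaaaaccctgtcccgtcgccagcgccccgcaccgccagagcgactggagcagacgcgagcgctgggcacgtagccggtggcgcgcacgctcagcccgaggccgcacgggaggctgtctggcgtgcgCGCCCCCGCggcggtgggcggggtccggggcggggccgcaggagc
TPM4: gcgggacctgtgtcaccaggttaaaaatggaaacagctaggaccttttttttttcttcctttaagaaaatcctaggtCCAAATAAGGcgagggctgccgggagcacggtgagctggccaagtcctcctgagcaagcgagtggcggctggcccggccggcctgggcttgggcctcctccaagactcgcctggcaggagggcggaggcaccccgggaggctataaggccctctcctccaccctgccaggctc
The windows of TPM1 and LIMA1 were 78.4% and 73.6% G and C, and that of TPM4 61.2%. The search covered both strands for the CArG box, the CRE TGACGTCA, the AP-1 site TGANTCA and the EGR1 site GCGNGGGCG. The TPM1 window held none of these 4 motifs. The LIMA1 window held 1 EGR1 site, CGCCCCCGC on the printed strand, beginning 45 bases before the start; 8.41% of 35116 RefSeq windows of this length held one. The TPM4 window held 1 CArG box, CCAAATAAGG, beginning 173 bases before the start; 1.16% of windows held one. Of the other windows of the members, both further TPM4 starts held an EGR1 site, and the internal LIMA1 start, both TPM2 starts and both TPM3 starts held no match of the 4 motifs. CRE matches were in 1.65% and AP-1 matches in 6.57% of all windows and in none of the 10 of the members. A match describes letters only.

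TPM1, an actin filament coat protein best known from muscle, was present at a moderate level in these cells, above 55.5% of the 16104 genes tested when averaged over the 15 libraries. Its normalized read counts were 358, 365 and 403 with dCBP-1; 325, 352 and 263 with the combination; 318, 255 and 254 with GNE-781; 211, 224 and 151 with A-485; and 68.2, 69.6 and 151 with DMSO. Every treated group lay above DMSO, but DMSO replicate 3 at 150.5 came within 1 normalized read of the lowest A-485 library at 151.03. How many of all genes have groups that do not overlap was not counted, for TPM1 or for any gene below. The means were 375 ± 24.4, 313 ± 45.5, 275 ± 36.6, 195 ± 38.9 and 96.1 ± 47.1 (SD, n = 3 each) in the same order. On the log2(value + 1) scale, used for all fold changes here, TPM1 was above DMSO by 2.05 with dCBP-1, 1.79 with the combination, 1.60 with GNE-781 and 1.10 with A-485 (SE 0.23 each). Without DMSO replicates 1 and 2, against the single DMSO library left, these values were 1.31, 1.04, 0.86 and 0.35.

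LIMA1, the actin bundling protein, stood above 72.6% of genes tested by its mean. Its normalized read counts were 1191, 1070 and 1131 with dCBP-1; 542, 705 and 697 with the combination; 605, 591 and 589 with GNE-781; 471, 362 and 335 with A-485; and 241, 177 and 303 with DMSO. No treated library overlapped the DMSO libraries, and the 3 dCBP-1 libraries lay above all other 12. The share of all genes that separate in this way was not counted. The means were 1131 ± 60.4, 648 ± 91.7, 595 ± 8.66, 389 ± 71.8 and 241 ± 63.1 (SD, n = 3 each). LIMA1 was above DMSO by 2.26 with dCBP-1, 1.45 with the combination, 1.34 with GNE-781 and 0.71 with A-485 (log2, SE 0.17 each). Without DMSO replicates 1 and 2 the values were 1.89, 1.08, 0.97 and 0.34. The 2 genes thus held the same order of group means, and neighbouring groups in that order overlapped only between the combination and GNE-781. These comparisons chose both genes; for background, 19.3% of genes tested were called higher with dCBP-1, 11.4% with the combination, 7.82% with GNE-781 and 0.348% with A-485 against DMSO (limma, adjusted p below 0.05). The A-485 share was 0.851% to 0.9% with the 3 other scalings, where 35.8% to 43.9% of the genes called were higher, against 16.2% here. Genes that overlap these 2 on the genome had few reads: TPM1-AS, antisense to TPM1, reached 13.4 normalized reads and AC008147.2, inside LIMA1 on its strand, reached 24.0.

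**Figure D1:**
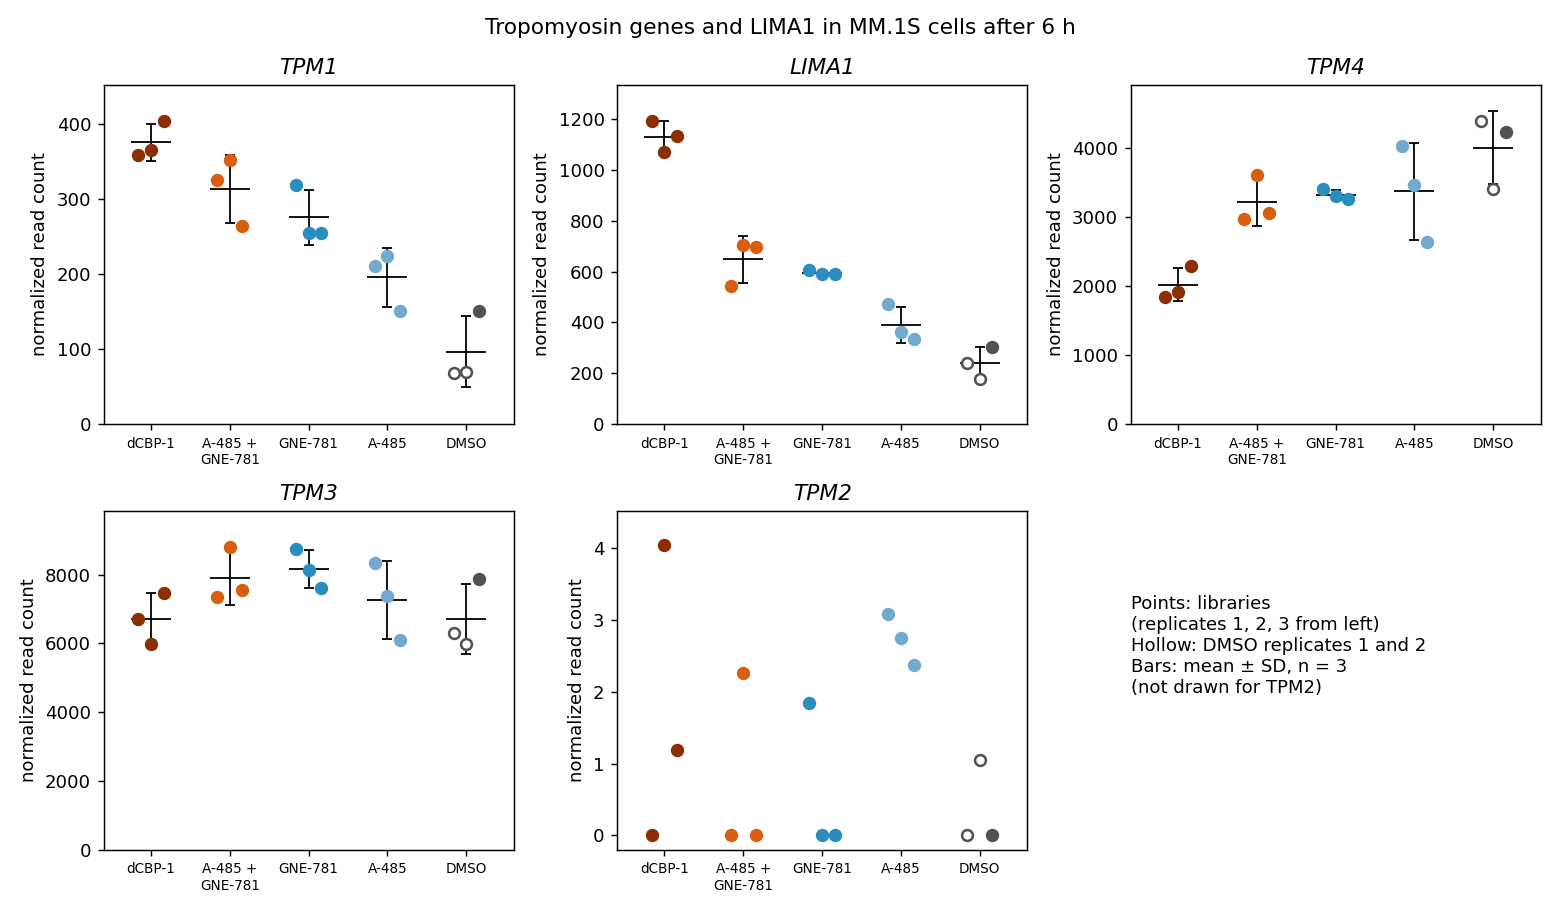
Normalized read counts (vertical axes, linear) of the 5 genes in each library, by group from dCBP-1 at the left to DMSO at the right; points are libraries, bars the mean ± SD of 3 libraries (not drawn for TPM2), hollow points DMSO replicates 1 and 2. TPM1 and LIMA1 averaged 375 and 1131 with dCBP-1 against 96.1 and 241 with DMSO, TPM4 averaged 2017 against 4007, and TPM3 varied between 5979 and 8804 over the libraries.

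TPM4, a tropomyosin of non-muscle cells with a known part in platelet formation, was lower with the degrader. Its normalized read counts were 1848, 1912 and 2292 with dCBP-1; 2972, 3605 and 3062 with the combination; 3407, 3306 and 3266 with GNE-781; 4028, 3461 and 2632 with A-485; and 4388, 3406 and 4225 with DMSO. All 3 dCBP-1 libraries lay below the other 12, while each of the other treated groups overlapped DMSO. The share of all genes that separate in this way was not counted. TPM4 fell with dCBP-1, to a mean of 2017 ± 240 against 4007 ± 526 in DMSO (SD, n = 3 each), a log2 difference of −0.99 ± 0.14 (SE; limma with Benjamini-Hochberg adjustment over all genes tested, adjusted p = 2.6e-06). In dCBP-1 against DMSO 18.5% of genes tested were called lower. The fall passed the test under each of the 19 alternatives run, with values of −1.10 to −0.84 and adjusted p of 1.1e-09 to 0.00016; without DMSO replicates 1 and 2 it was −1.07, where the lone DMSO library is assumed to vary like the other groups. The differences from DMSO were −0.31 with the combination (95% interval −0.61 to −0.02, limma adjusted p = 0.12), −0.26 with GNE-781 (−0.55 to 0.03, limma adjusted p = 0.23) and −0.26 with A-485 (−0.56 to 0.03, limma adjusted p = 0.39), none of which passed the test; among all genes 9.6%, 8.81% and 1.79% were called lower. They were −0.40, −0.35 and −0.35 without DMSO replicates 1 and 2 (limma adjusted p = 0.24, 0.34 and 0.51). The combination value did pass with TMM or median-ratio scaling (−0.36 in both, limma adjusted p = 0.026 and 0.027; range over the alternatives 0.026 to 0.32).

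TPM3 was the most abundant of the 4 tropomyosins in every library, above 98.5% of genes tested by its mean; it makes both a slow muscle form and widespread cytoskeletal forms. Its normalized read counts were 6698, 5979 and 7470 with dCBP-1; 7365, 8804 and 7552 with the combination; 8737, 8146 and 7612 with GNE-781; 8351, 7366 and 6086 with A-485; and 6306, 5981 and 7883 with DMSO. All 4 treated groups overlapped the DMSO range. None of the differences passed the test: 0.00 with dCBP-1 (95% interval −0.29 to 0.29, limma adjusted p = 0.99), 0.24 with the combination (−0.05 to 0.53, limma adjusted p = 0.24), 0.29 with GNE-781 (upper bound 0.58, limma adjusted p = 0.17) and 0.11 with A-485 (−0.18 to 0.40, limma adjusted p = 0.76). Without DMSO replicates 1 and 2 they were −0.24, 0.00, 0.05 and −0.13 in the same order (limma adjusted p = 0.38, 1, 0.92 and 0.8), with a change of sign for A-485. Quantile normalization put 2 of them past the threshold, GNE-781 at 0.40 (limma adjusted p = 0.0063; range over the alternatives 0.0063 to 0.92) and the combination at 0.36 (limma adjusted p = 0.011; range 0.011 to 1). TPM3 and TPM4 have near-identical processed copies elsewhere in the genome, and how reads shared with them were counted is not given in the sources used here. The 8 annotated TPM3 copies together held 0.9% to 1.69% as many reads as TPM3, and the 2 TPM4 copies at most 0.55% as many as TPM4.

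TPM2, the beta tropomyosin of striated muscle, was near the detection limit. Its 15 libraries held 20 reads in all: 6 with dCBP-1, 2 with the combination, 2 with GNE-781, 9 with A-485 and 1 with DMSO. Single libraries held 0, 5 and 1 reads with dCBP-1, 0, 2 and 0 with the combination, 2, 0 and 0 with GNE-781, 3, 3 and 3 with A-485, and 0, 1 and 0 with DMSO. The A-485 libraries lay above those of the combination, GNE-781 and DMSO, on 3 reads each. TPM2 did not reach 5 normalized reads in any library and was not tested, so 4 of the 5 members passed the filter on low values.

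The make-up of the tropomyosin transcripts can be read within each library, free of the scaling between libraries. TPM1 made up 4.02%, 4.42% and 3.97% of the summed TPM1 to TPM4 values with dCBP-1; 3.05%, 2.76% and 2.42% with the combination; 2.55%, 2.18% and 2.28% with GNE-781; 1.67%, 2.03% and 1.70% with A-485; and 0.634%, 0.736% and 1.23% with DMSO. Even at its highest, TPM1 was thus a small part of the family's transcripts. TPM4 made up 20.8%, 23.1% and 22.5% with dCBP-1; 27.9%, 28.2% and 28.2% with the combination; 27.3%, 28.2% and 29.3% with GNE-781; 32.0%, 31.3% and 29.7% with A-485; and 40.8%, 36.0% and 34.5% with DMSO. TPM3 took the rest, on average 73.7% with dCBP-1, 69.2% with the combination, 69.4% with GNE-781, 67.2% with A-485 and 62.0% with DMSO.

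The ratio of TPM4 to TPM3, 2 genes taken in by family name, had lower values in every treated group than in DMSO. This ratio was chosen with earlier results of these data known. How often ratios of other genes separate the groups in this way was not counted. The mean log2(TPM4/TPM3) was −1.74 ± 0.11 with dCBP-1, −1.30 ± 0.01 with the combination, −1.29 ± 0.07 with GNE-781, −1.12 ± 0.08 with A-485 and −0.74 ± 0.20 with DMSO (SD, n = 3 each). The groups did not overlap in 9 of the 10 pairs, including all 4 treated groups against DMSO; the tenth, the combination against GNE-781, did. With 3 libraries against 3 the two-sided exact permutation test cannot go below p = 0.1, which is the value of these 9 pairs (0.111 adjusted over the 10), and the tenth had p = 0.8. The ratio differed from DMSO by −0.37 with A-485 and by −0.55 with GNE-781 on the log2 scale, although neither gene alone passed the limma test with either compound. Against DMSO replicate 3 alone, the differences were −0.84 with dCBP-1, −0.40 with the combination, −0.39 with GNE-781 and −0.22 with A-485. DMSO replicate 3, the DMSO library that resembled the treated libraries in mitochondrial share, had the lowest DMSO ratio at −0.90, and the highest treated library, A-485 replicate 1, had −1.05.

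**Figure D2:**
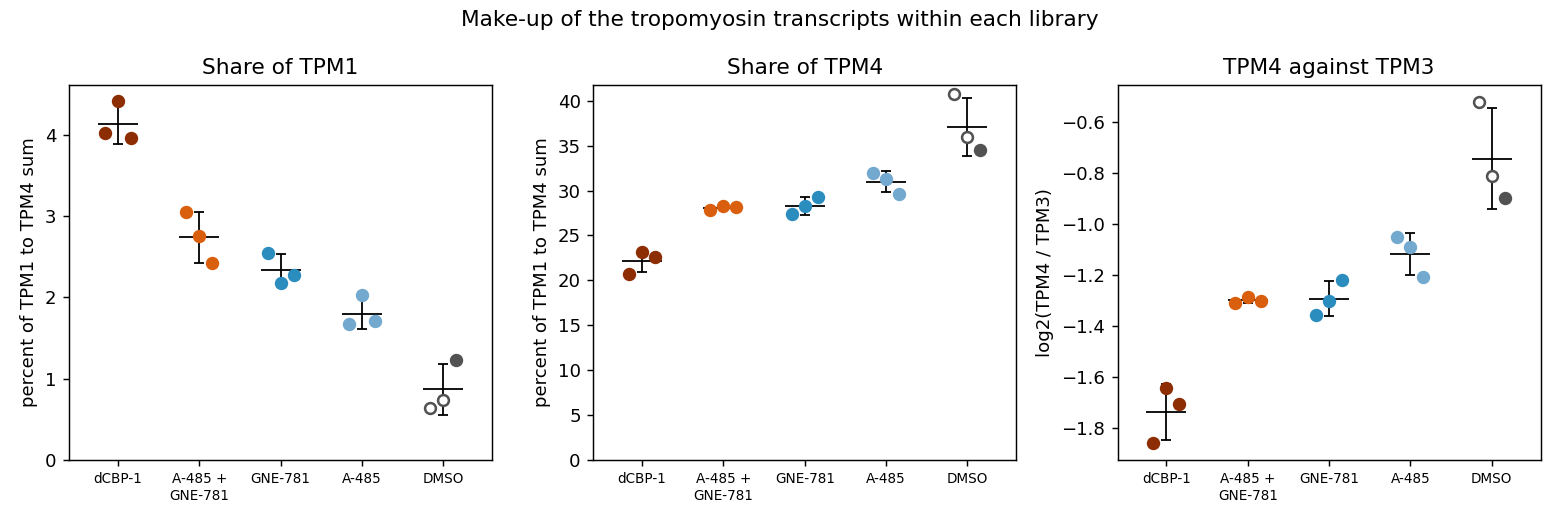
Share of TPM1 and of TPM4 in the summed values of TPM1 to TPM4 (percent, linear axes from 0) and log2(TPM4/TPM3) in each library, by group from dCBP-1 to DMSO; points are libraries, bars mean ± SD of 3, hollow points DMSO replicates 1 and 2. The TPM1 share averaged 4.13% with dCBP-1 and 0.866% with DMSO, and the TPM4 share 22.1% with dCBP-1 and 37.1% with DMSO.

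Whether the degrader and the inhibitors acted differently on these genes was compared over 6 pairs of treated groups at the same dose and time, where no DMSO library enters the difference itself but all 15 libraries enter the shared estimate of spread; p-values were adjusted over all genes tested within each pair. The degrader and the combination both address CBP and p300. The degrader does so through a bromodomain ligand, and the combination through the bromodomain and the catalytic site. The treated values of TPM1 and LIMA1 took part in the choice of these genes. Their p-values in these pairs are therefore not independent of that choice. LIMA1 was higher with dCBP-1 than with the combination by 0.81 ± 0.17 (log2, SE; limma adjusted p = 0.0016), than with GNE-781 by 0.92 ± 0.17 (limma adjusted p = 0.00025) and than with A-485 by 1.55 ± 0.17 (limma adjusted p = 2.6e-08). In dCBP-1 against the combination 0.553% of genes tested were called higher and 5.61% lower, and against GNE-781 and A-485 9.31% and 24.5% were called in either direction. With TMM, median-ratio and quantile scaling the share called higher against the combination was 1.69%, 2.04% and 3.1%, and the higher genes made up 19.8%, 24.0% and 33.6% of those called, against 8.96% here. Against GNE-781 the higher genes made up 31.0%, 33.2% and 43.4% of those called with these scalings, against 23.5% here. TPM4 was lower with dCBP-1 than with the combination by −0.67 ± 0.14 (limma adjusted p = 0.0021), than with GNE-781 by −0.73 ± 0.14 (limma adjusted p = 0.00066) and than with A-485 by −0.73 ± 0.14 (limma adjusted p = 0.00032). These 6 differences passed the test in every alternative run. For LIMA1 the alternatives reuse the values that took part in its choice.

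TPM1 was called in 1 of the 3 pairs that hold dCBP-1. It was higher with dCBP-1 than with A-485 by 0.96 ± 0.23 (limma adjusted p = 0.0021), a call that held in every alternative run. The alternatives refit the values that took part in the choice of TPM1. Here and in the comparisons of treated groups below, calls of TPM1 and LIMA1 are descriptive and not independent of that choice. Against the combination it was 0.27 (95% interval −0.20 to 0.73, limma adjusted p = 0.65) and against GNE-781 0.45 (−0.01 to 0.92, limma adjusted p = 0.26), neither past the threshold, although the dCBP-1 libraries did not overlap those of either group. The GNE-781 pair passed when the model held only the 2 groups compared (0.45, limma adjusted p = 0.035; range over the alternatives 0.035 to 0.48). TPM3 did not pass the test in any of the 6 pairs, with values of −0.29 (dCBP-1 against GNE-781) to 0.18 (GNE-781 against A-485).

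The single inhibitors and their combination were compared next. Between the combination and GNE-781 the differences were 0.11 for LIMA1 (95% interval −0.23 to 0.46), 0.18 for TPM1 (−0.28 to 0.65), −0.06 for TPM4 (−0.35 to 0.24) and −0.05 for TPM3 (−0.34 to 0.24). In this pair 0.0% of all genes were called (0 genes with limma, edgeR or DESeq2; 494 with limma at an unadjusted p below 0.05), and the intervals do not show that the 2 treatments act alike. LIMA1 was higher with the combination than with A-485 by 0.74 ± 0.17 (limma adjusted p = 0.011), in a pair where 3.2% of all genes were called, 51.0% of them higher (28.4%, 27.7% and 37.8% with TMM, median-ratio and quantile scaling). That call was lost without A-485 replicate 2 (0.69, limma adjusted p = 0.063), without A-485 replicate 3 (0.64, limma adjusted p = 0.076) or without combination replicate 2 (0.67, limma adjusted p = 0.09), in a range of 0.0012 to 0.09 over the alternatives. TPM1 was 0.69 higher in the same pair (0.22 to 1.16, limma adjusted p = 0.091), and passed with DESeq2 (0.69, adjusted p = 0.041; range over the alternatives 0.041 to 0.36).

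GNE-781 and A-485 bind different sites of the same proteins. LIMA1 was 0.63 higher with GNE-781 than with A-485 (95% interval 0.28 to 0.97, limma adjusted p = 0.072) and TPM1 0.51 higher (0.04 to 0.97, limma adjusted p = 0.36), neither past the threshold, in a pair where 1.0% of all genes were called. LIMA1 did pass under 6 of the 17 alternatives, among them TMM scaling (0.54, limma adjusted p = 0.027) and DESeq2 (0.61, adjusted p = 0.022), with adjusted p of 0.011 to 0.32 over all. TPM4 differed by 0.00 (95% interval −0.29 to 0.30). On the log2 scale the effect of the combination minus the sum of both single effects was −0.91 ± 0.32 for TPM1 and −0.60 ± 0.24 for LIMA1 (SE). These terms are given without a test because the contrasts that chose these genes enter them. Without DMSO replicates 1 and 2 these terms were −0.17 and −0.23. The term was −0.16 for TPM3 (limma adjusted p = 0.91) and 0.21 for TPM4 (limma adjusted p = 0.87), or 0.08 and 0.29 without DMSO replicates 1 and 2, and 0.447% of all genes were called.

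**Figure D3:**
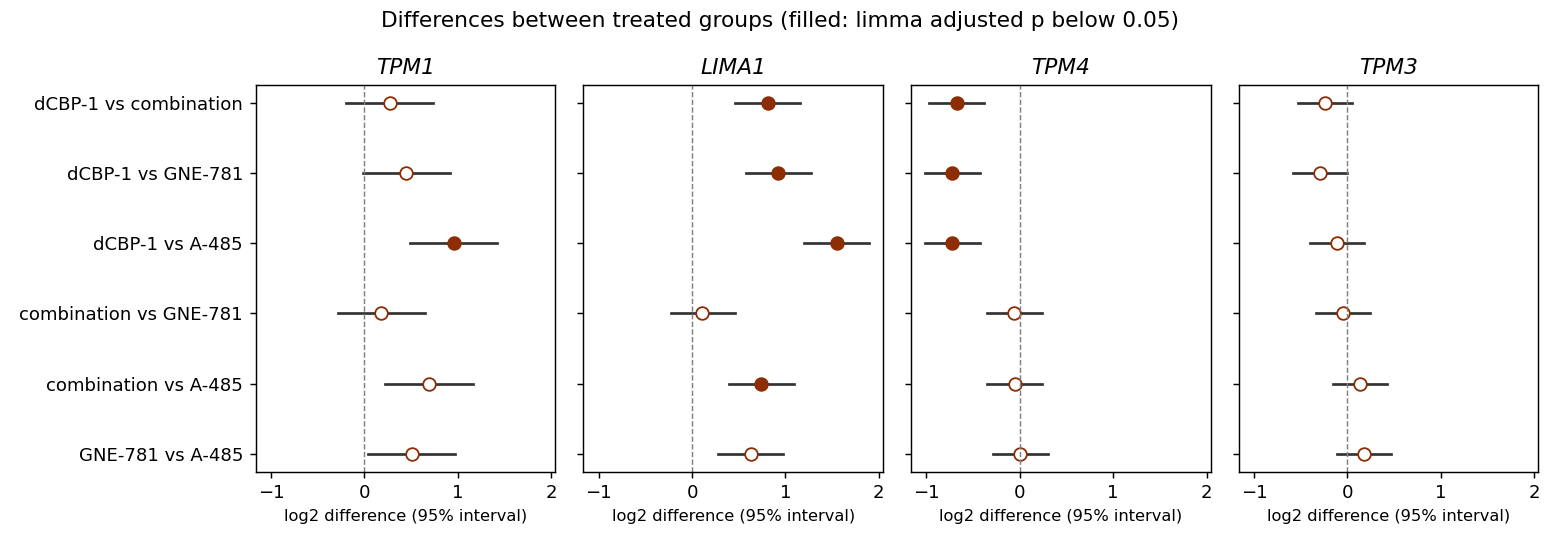
Log2 differences between treated groups (horizontal axis, first named minus second, on the log2(value + 1) scale) for TPM1, LIMA1, TPM4 and TPM3; points are limma estimates from 3 libraries a group, lines 95% intervals, filled points adjusted p below 0.05. LIMA1 lay above 0 and TPM4 below 0 in all 3 pairs that hold dCBP-1, at 0.81 to 1.55 and −0.73 to −0.67.

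The other genes of the actin filament system were described in lists by role, as counts called. These counts are to be read beside the shares called among all genes against DMSO. The shares were 19.3% higher and 18.5% lower with dCBP-1, and 11.4% and 9.6% with the combination. They were 7.82% and 8.81% with GNE-781, and 0.348% and 1.79% with A-485. The median difference over all genes tested was 0.07 with dCBP-1, 0.09 with the combination, 0.07 with GNE-781 and −0.03 with A-485 against DMSO. The 4 treated groups share the same DMSO libraries. The list counts below for A-485, GNE-781 and the combination are from all 15 libraries. Most of these counts change without DMSO replicates 1 and 2, where the median over all genes was −0.19, −0.11 and −0.09 in that order. The median of every list was then lower with each of these treatments. For crosslinkers and adhesion proteins it went from 0.09 to −0.22 with GNE-781 and from 0.03 to −0.23 with the combination. Genes named are among the 4 of each list with the smallest p with dCBP-1. Lists were counted again without DMSO replicates 1 and 2, where 7.75% of all genes were called higher and 15.8% lower with dCBP-1 and the median over all genes was −0.12.

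Of 19 tropomyosin partners, namely tropomodulins, leiomodins, caldesmon, calponins and troponins, 6 passed the filter; with dCBP-1 0 were called higher and 1 lower, with a median of −0.10, and the counts without DMSO replicates 1 and 2 were also 0 and 1. The gene called was CNN2, a calponin of non-muscle cells that binds actin, which fell to 1238 ± 89.8 with dCBP-1 against 1906 ± 424 with DMSO (−0.60 ± 0.14, limma adjusted p = 0.00083; −0.93 without DMSO replicates 1 and 2). TMOD2, a tropomodulin that caps the slow-growing filament end, had 0.46 ± 0.23 (limma adjusted p = 0.12), or 0.16 without those 2 libraries. TNNC1, a troponin, and CALD1, caldesmon, averaged at most 12.4 normalized reads in a group and did not pass. With A-485 0 of the 6 were called in either direction, with GNE-781 1 was lower, and with the combination 1 was higher. The gene called with the combination was TMOD2 (0.66 ± 0.23, limma adjusted p = 0.039), with 0.36 without DMSO replicates 1 and 2.

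Of the actins, the chains of non-muscle myosin II and the kinases that activate it, 12 of 17 passed the filter; 2 were called higher and 2 lower with dCBP-1, with a median of 0.16. MYH9, a heavy chain of non-muscle myosin, fell to 3687 ± 169 with dCBP-1 against 7601 ± 960 with DMSO (−1.04 ± 0.13, limma adjusted p = 2.2e-07). MYL12A, a regulatory light chain, fell to 2179 ± 539 against 4942 ± 246 (−1.21 ± 0.16, limma adjusted p = 7.6e-07). ROCK1, a kinase that promotes myosin activity, rose by 0.49 ± 0.14 (limma adjusted p = 0.0062), and MYH10, another myosin heavy chain, by 0.42 ± 0.14 (limma adjusted p = 0.018). Without DMSO replicates 1 and 2 these last values were 0.20 and 0.08 (limma adjusted p = 0.46 and 0.79), while MYH9 and MYL12A kept their calls at −1.23 and −1.26; 1 gene was then higher and 2 lower. MYH9 was also lower with dCBP-1 than with the combination, by −0.43 ± 0.13 (limma adjusted p = 0.043). Other genes named below differed more in this pair. Among them were EGR1 at 3.0 and PLS1 at 1.13, and FMNL1 at −1.07 and ELK3 at −1.06.

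Of 29 tested among 31 LIM domain proteins of the actin system, the class that LIMA1 belongs to, 5 were called higher and 8 lower with dCBP-1, with a median of 0.16; without DMSO replicates 1 and 2 the counts were 3 and 7. The combination had 5 higher and 7 lower, GNE-781 2 and 8, and A-485 0 and 1. PDLIM1, which links alpha-actinin to kinases, fell to 1312 ± 65.8 with dCBP-1 against 3675 ± 413 with DMSO (−1.48 ± 0.14, limma adjusted p = 7.2e-10). FHL1, a LIM-only protein of muscle and other tissues, fell to 241 ± 8.02 against 696 ± 166 (−1.50 ± 0.16, limma adjusted p = 1.6e-08). LIMD1, a scaffold of the zyxin family, fell to 171 ± 39.3 against 505 ± 55.7 (−1.58 ± 0.17, limma adjusted p = 1.9e-08), and ABLIM1, an actin-binding LIM protein, by 1.25 ± 0.15 (limma adjusted p = 7e-08). These 4 genes kept their calls, at −1.29 for PDLIM1, −1.07 for FHL1, −1.58 for LIMD1 and −1.36 for ABLIM1 without DMSO replicates 1 and 2. The 4 genes of this class with the smallest p fell where LIMA1 was higher. They do not stand for the class, in which 5 of 29 were called higher. Its median of 0.16 with dCBP-1 compares with 0.07 over all genes.

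Of 22 tested among 24 crosslinkers and adhesion proteins, 7 were called higher and 4 lower with dCBP-1, with a median of 0.12, and 2 and 4 without DMSO replicates 1 and 2. PLS1, an actin bundling plastin, rose to 158 ± 22.5 with dCBP-1 against 37.3 ± 7.84 with DMSO (2.06 ± 0.31, limma adjusted p = 5e-06). FLNA, a filamin that crosslinks actin, fell to 1470 ± 275 with dCBP-1 against 2799 ± 204 with DMSO (−0.94 ± 0.16, limma adjusted p = 3.1e-05). SPTBN1, a spectrin chain of the membrane skeleton, fell by 0.88 ± 0.13 (limma adjusted p = 3.1e-06). The values were 1.99 for PLS1, −1.0 for FLNA and −1.11 for SPTBN1 without those 2 libraries, each still called. With the combination 4 were higher and 5 lower, with GNE-781 4 and 4, and with A-485 0 and 1.

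Of 43 tested among 44 genes of filament assembly and severing, 5 were called higher and 13 lower with dCBP-1, with a median of −0.21; without DMSO replicates 1 and 2 the counts were 1 and 14 and the median −0.34. FMNL1, a formin of blood cells that elongates filaments, fell to 259 ± 29.9 with dCBP-1 against 916 ± 151 with DMSO (−1.81 ± 0.15, limma adjusted p = 5e-11). CORO1C, a coronin, fell to 710 ± 62.5 against 2005 ± 345 (−1.48 ± 0.14, limma adjusted p = 4.1e-10), and PFN1, which delivers actin monomers, to 2275 ± 693 against 5839 ± 833 (−1.40 ± 0.18, limma adjusted p = 2.2e-07). DAAM1, another formin, rose to 818 ± 82.4 against 312 ± 107 (1.44 ± 0.18, limma adjusted p = 2.8e-07). All 4 kept their calls without DMSO replicates 1 and 2, at −2.06 for FMNL1, −1.71 for CORO1C, −1.16 for PFN1 and 0.92 for DAAM1. The combination had 3 higher and 9 lower, GNE-781 2 and 7, and A-485 0 and 2.

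The last list held serum response factor, its cofactors and textbook targets, which are known to include many actin genes; 12 of its 28 genes stand in the lists above too. Of 23 tested, 5 were called higher and 8 lower with dCBP-1, with a median of −0.20, and 4 and 7 without DMSO replicates 1 and 2. EGR1, an immediate early factor, rose to 2691 ± 98.6 with dCBP-1 against 42.8 ± 16.6 with DMSO (6.00 ± 0.24, limma adjusted p = 4.1e-18), and ELK3, a partner of serum response factor, fell to 398 ± 62.9 against 1666 ± 180 (−2.07 ± 0.14, limma adjusted p = 7.9e-13); without DMSO replicates 1 and 2 they had 5.42 and −2.18. The targets CNN2, MYH9, FHL1 and FLNA, named with other lists above, fell with dCBP-1. They do not stand for the list, in which 5 genes were called higher, EGR1 among them. With the combination 5 were higher and 6 lower, with GNE-781 5 and 7, and with A-485 0 and 2.

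**Figure D4:**
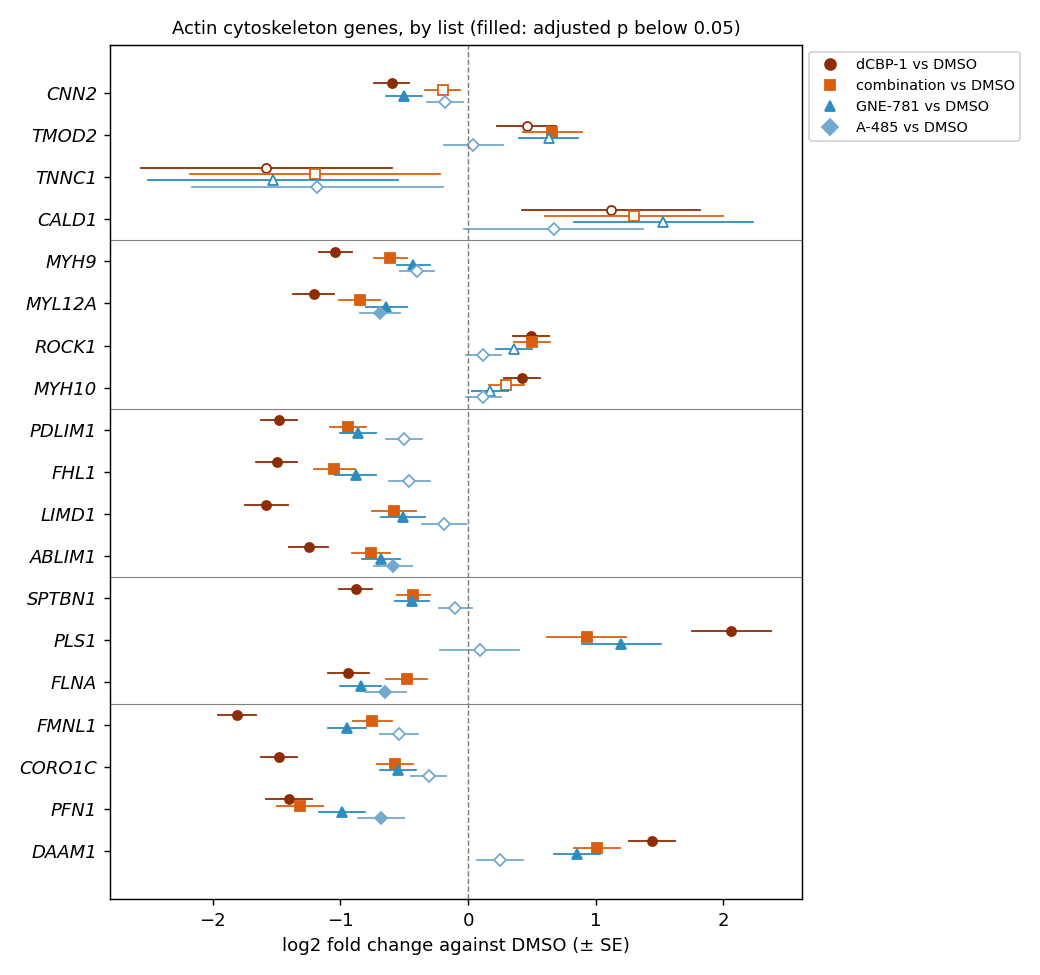
Log2 fold changes against DMSO (horizontal axis, ± SE) of genes among the 4 of each actin list with the smallest p with dCBP-1, by compound; lists from the top are tropomyosin partners, actins and myosin II, LIM domain proteins, crosslinkers, and assembly and severing genes, and filled markers have adjusted p below 0.05. With dCBP-1, FMNL1 at −1.81 and PLS1 at 2.06 mark the ends of the filled points.

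Over the 15 libraries the log2(value + 1) values of TPM1 and LIMA1 had a Pearson r of 0.92, and of 0.89 over the 13 libraries without DMSO replicates 1 and 2. TPM4 had r = −0.71 with LIMA1 and −0.56 with TPM1 over 15 libraries (−0.74 and −0.54 over 13). These are descriptions over libraries that share treatments. TPM1 and LIMA1 were both chosen for their rise with treatment in these libraries, so a high r between them follows in part from that choice. The search for similar genes took 7914 genes whose mean reached the median of the genes tested. Genes without a symbol, clone and LINC names, antisense genes and pseudogenes were left out before this count. The genes most like TPM1 were DOK1 (0.979), FANCL (0.974), NUP85 (0.973), GLE1 (0.970) and ARHGEF26 (0.970). Over 13 libraries their r was 0.903 to 0.951. Those most like LIMA1 were UBXN7 (0.985), TSC1 (0.983), ABCC5, SCOC and PRUNE1 (0.977 each), with 0.960 to 0.983 over 13 libraries. FANCL, for example, averaged 927 ± 124 with dCBP-1, 705 ± 101 with the combination, 711 ± 43.1 with GNE-781, 475 ± 71.3 with A-485 and 307 ± 96.3 with DMSO, and UBXN7 averaged 3118 ± 27.1, 2564 ± 229, 2382 ± 67.2, 1933 ± 168 and 1705 ± 178 in the same groups. CREBBP, the gene of CBP, averaged 2274 ± 326 with dCBP-1, 1889 ± 179 with the combination and 1845 ± 179 with GNE-781. It averaged 1451 ± 264 with A-485 and 1264 ± 163 with DMSO. EP300, the gene of p300, averaged 1607 ± 395 with dCBP-1, 1569 ± 303 with the combination and 1482 ± 254.5 with GNE-781. Its averages were 1096 ± 100 with A-485 and 1193 ± 106 with DMSO (SD, n = 3 each).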

How the data were processed

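Libraries of messenger RNA 3′ ends (Lexogen QuantSeq, per the labels' protocols) were made from MM.1S cells in 5 groups of 3. The authors deposited 1 table of normalized read counts (signal; from the values, read counts scaled by 1 factor per library) for 47459 genes with Ensembl identifiers, of which 45779 (96.5%) matched a symbol; 1 further row had no values. The genome was hg19, per the submitters' processing notes; aligner, counter, strand setting and handling of reads with several matches are not given in the sources used here. The treatment field numbers GNE-781 differently in some samples and the molecule field names genomic DNA; these were read as slips in the labels, and groups follow the titles.

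In each library all values (100.0%, tolerance 0.01) were whole multiples of the lowest step, so reads were recovered; 1 read was worth 0.791 to 1.214 normalized reads. The 16104 genes that reached a value of 5 in 3 libraries or more were fitted on log2(value + 1) with limma 3.58.1 (R 4.3.3), trend on, 1 model of 5 group means, two-sided tests, Benjamini-Hochberg adjustment over all genes tested per comparison and a call below 0.05. edgeR 4.0.16 and DESeq2 1.42.0 on recovered reads, other scalings, pseudocounts and filters, left-out libraries and a replicate block were alternatives. Replicates differed beyond counting noise (chi-square per degree of freedom 5.32 to 42.76). The model was tested on simulated data. Fold changes of low genes are understated by the pseudocount.

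The members, lists and tests were chosen with earlier results of these data known. Named genes are the 5 members, up to 4 genes of each list with the smallest limma p with dCBP-1 against DMSO, the 5 genes most correlated with TPM1 and with LIMA1, and CREBBP and EP300; 1 gene that the rule names is not reported here. Promoter windows came from RefSeq on GRCh38.p14 (10 windows, all 5 members matched).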

Additional observations from a re-analysis of the deposited data

How the results depend on the processing

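Of 878 recomputed values over 54 results, 824 stayed the same, 23 changed sign, 15 moved, 3 lost a call and 13 gained one. Where a test was run, the same means the same sign and side of the threshold. For TPM1 and LIMA1 against DMSO and their non-additivity, it means the same sign and a shift below the gene's SD within groups. Larger shifts of the same sign count as moved. For log2(TPM4/TPM3) only the sign was compared. The cause of the changes below was not tested. Without DMSO replicates 1 and 2 together, TPM1 against DMSO became 0.35 (A-485), 0.86 (GNE-781), 1.04 (combination) and 1.31 (dCBP-1), LIMA1 0.34, 0.97, 1.08 and 1.89, and their non-additivity −0.17 and −0.23; TPM3 became −0.13 (A-485), 0.00 (combination), −0.24 (dCBP-1) and 0.08 (non-additivity). With single libraries left out, TPM1 against DMSO ran from 0.90 to 1.47 with A-485, 1.41 to 1.97 with GNE-781, 1.59 to 2.16 with the combination and 1.86 to 2.43 with dCBP-1, each highest without DMSO replicate 3, and its non-additivity from −1.29 to −0.72. In the same way TPM3 ran from 0.21 to 0.41 (GNE-781 against DMSO, called without DMSO replicate 3), −0.08 to 0.12 (dCBP-1 against DMSO) and −0.13 to 0.00 (combination against GNE-781); LIMA1 from 0.64 to 0.88 (combination against A-485) and 0.53 to 0.77 (GNE-781 against A-485, called without A-485 replicate 1); TPM4 from −0.22 to 0.08 (combination against A-485) and −0.17 to 0.14 (GNE-781 against A-485); and log2(TPM4/TPM3) from −0.04 to 0.03 (combination against GNE-781).

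Quantile normalization put TPM3 past the threshold at 0.40 with GNE-781 and 0.36 with the combination. TPM4 with the combination passed at −0.36 with TMM and with median-ratio scaling. LIMA1 in GNE-781 against A-485 passed at 0.54 (TMM), 0.55 (median ratio), 0.56 (quantile), 0.63 (only these groups) and 0.61 (DESeq2). TPM1 passed in dCBP-1 against GNE-781 at 0.45 with only these groups and in the combination against A-485 at 0.69 with DESeq2. Values near 0 changed sign: TPM3 with dCBP-1 to −0.02 (TMM) and 0.00 (median ratio, edgeR, DESeq2, pseudogene reads added, the last chosen after seeing the data), and TPM4 in GNE-781 against A-485 to −0.08 (TMM, median ratio), −0.01 (quantile) and −0.02 (edgeR, DESeq2).

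The labels do not say whether replicate numbers pair the libraries, and the main model took no pairing. For genes at or above the median level, each library's deviations from its group mean were compared between same-numbered libraries. Correlations of these deviations were mixed in sign, from −0.527 to 0.397 between groups, over 0.1 in 7 of 30 pairs. With the replicate block TPM4 in dCBP-1 against DMSO stayed at −0.99 (limma adjusted p = 7.5e-06), and the block changed no call of a member. Genes called were 107 with the block and 161 without it in GNE-781 against A-485, and 34 and 72 for non-additivity.

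Counts of genes called moved by more than 1.5 times in 8 comparisons, beside 0 to 1 in the combination against GNE-781. Against DMSO they were 345 with A-485 (12 to 1138 over the alternatives), 2679 with GNE-781 (883 to 3689), 3383 with the combination (1064 to 4277) and 6092 with dCBP-1 (3788 to 6785), each lowest without DMSO replicates 1 and 2. They were 1500 in dCBP-1 against GNE-781 (1033 to 2396), 516 in the combination against A-485 (187 to 986), 161 in GNE-781 against A-485 (57 to 466) and 72 for non-additivity (1 to 213). TPM2, with at most 5 reads a library, was not tested.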
